A study of Mus musculus with 10 samples.

Results

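Zinc enters and leaves cells and organelles through 2 families of transporters, and 8 of their genes are described here in the embryonic mouse pancreas. The SLC30 (ZnT) proteins move zinc out of the cytosol, into vesicles or out of the cell, and 3 of the 8 genes belong to this family: Slc30a8, Slc30a1 and Slc30a2. The SLC39 (ZIP) proteins move zinc into the cytosol, and 5 belong here: Slc39a2, Slc39a4, Slc39a5, Slc39a10 and Slc39a14. The 8 symbols were chosen by their measured levels over classes and stages in these same libraries, so their levels and fitted differences are given as a description, with no p. All 8 were present in every gene list used, among the 27716 gene IDs shared by all matrices. A further 22 genes of zinc handling, namely the other SLC30 and SLC39 genes, the vesicular zinc transporter Tmem163, the metallothioneins Mt1 to Mt4 and the metal-responsive factor Mtf1, served as the rest of a list of 30. That list too was drawn up with earlier results of these data known.

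Single-cell UMI counts came from 8 libraries of embryonic pancreas of 3 stages, the earliest E12.5, the middle E14.5 and the latest E17.5. The version 1 (v1) libraries held live cells of Swiss Webster embryos at E12.5, E14.5 (batches 1 and 2) and E17.5, and the version 2 (v2) libraries held CD140a-negative cells of the same strain, which lowers the share of mesenchyme, at the same 3 stages. The last library held sorted cells of Fev-Cre;ROSA26mTmG embryos at E14.5, in which a Cre driven by Fev switches a membrane tdTomato reporter to GFP. These mice were kept on a C57BL/6J background, so in that library strain and sort cannot be told apart from the library itself. GFP+ cells were mixed with tdTomato+ GFP-negative cells in chosen numbers, so the sort set the class sizes in that library. Each library was a pool of embryos, so the library was the replicate. The v1 libraries of E12.5, E17.5 and E14.5 batch 2 belong to 1 batch, whereas the v2 stages were collected on different days, and batch was not a term in the fits. Dissociation time moved with stage (10 min at E12.5, 15 min at E14.5 and 30 min at E17.5). Cells were clustered without the zinc list and named from marker genes. The 6 classes described held 22458 cells: 7849 ductal-like, 8947 acinar-like, 931 Ngn3+-like (endocrine progenitors with Neurog3), 1170 Fev+-like (the next endocrine progenitors, with the transcription factor Fev), 1945 alpha-like and 1616 beta-like. Of the markers, 7 of 7 ductal, 8 of 8 acinar, 7 of 7 Ngn3+, 9 of 9 alpha and 9 of 9 beta genes had their highest mean in the class they name. For the Fev+ class 6 of 8 did, while Pax4 and Tox3 were higher in the Ngn3+-like cells. The same markers named the classes, so these counts are no independent check of the names.

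The pancreas is rich in zinc. In beta cells the transporter ZnT8, the product of Slc30a8, loads zinc into secretory granules, where insulin is stored as crystals with zinc, and acinar cells secrete zinc with their enzymes. Zinc that is not bound or exported is buffered by metallothioneins, whose genes are switched on by MTF-1 through metal response elements, short motifs of promoters. Slc30a1, the exporter of the plasma membrane, is a textbook target of the same factor.

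Promoters of genes of zinc buffering and transport are shown first. Promoters of 250 bases before and 50 bases after the start, from RefSeq (GRCm38.p6), are described for 5 of the 8 genes: Slc30a1, Slc30a2, Slc39a2, Slc39a5 and Slc39a10. The search covered both strands for the metal response element core (TGCACNC and TGCGCNC, whose matches on opposite strands may overlap) and for the E-box CAGATG, a kind of site that Neurog3 and related factors bind. Of 32851 promoters of that length, 25.7% held the metal core and 17.2% held CAGATG. Slc30a1, the exporter, lies at chr1:191906531-191906830 on the plus strand, Slc39a2, which was high in Ngn3+-like cells, at chr14:51893360-51893659 on the plus strand, and Mt1, the metallothionein with the widest range of levels, at chr8:94178839-94179138 on the plus strand. Slc39a5, the gene that was high in late acinar-like cells, lies at chr10:128401175-128401474 on the minus strand for the first of its start sites. Capitals mark matches to the metal core on either strand.
Slc30a1: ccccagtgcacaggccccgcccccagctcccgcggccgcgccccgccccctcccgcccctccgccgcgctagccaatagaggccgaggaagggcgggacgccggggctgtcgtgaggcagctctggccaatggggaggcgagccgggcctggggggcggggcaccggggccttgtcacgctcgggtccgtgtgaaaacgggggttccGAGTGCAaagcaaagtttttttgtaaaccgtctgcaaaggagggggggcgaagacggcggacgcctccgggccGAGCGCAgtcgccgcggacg
Mt1: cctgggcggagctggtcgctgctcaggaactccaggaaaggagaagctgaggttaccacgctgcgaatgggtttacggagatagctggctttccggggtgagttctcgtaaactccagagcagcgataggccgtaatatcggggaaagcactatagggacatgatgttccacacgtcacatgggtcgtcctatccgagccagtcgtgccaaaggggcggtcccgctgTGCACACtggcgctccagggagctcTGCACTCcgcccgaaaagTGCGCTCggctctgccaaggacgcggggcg
Slc39a2: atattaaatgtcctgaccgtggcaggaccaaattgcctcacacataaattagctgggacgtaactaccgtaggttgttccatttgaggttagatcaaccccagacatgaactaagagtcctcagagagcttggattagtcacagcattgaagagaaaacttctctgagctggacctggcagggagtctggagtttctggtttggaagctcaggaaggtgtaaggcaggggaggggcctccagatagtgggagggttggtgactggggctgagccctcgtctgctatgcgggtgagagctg
Slc39a5: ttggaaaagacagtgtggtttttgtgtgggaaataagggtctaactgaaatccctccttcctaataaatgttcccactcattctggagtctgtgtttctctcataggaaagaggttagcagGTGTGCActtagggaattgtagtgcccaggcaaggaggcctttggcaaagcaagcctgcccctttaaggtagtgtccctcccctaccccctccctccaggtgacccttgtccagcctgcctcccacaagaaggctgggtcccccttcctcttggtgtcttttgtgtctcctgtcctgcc
The Slc30a1 window held 2 metal cores, the Mt1 window 3 and the Slc39a5 window 1. The Slc30a2 window held 2 metal cores and that of Mt2 held 4. The window of Slc39a2 held neither the metal core nor CAGATG, and those of the Slc39a10 start sites held neither. At its other start site Slc39a5 had no metal core and 1 CAGATG. By GENCODE M21 positions the Slc30a2 window (chr4:134343216-134343515) lies wholly inside the gene. So do the Slc39a2 window and those of the later start sites of Slc39a5 and Slc39a10. The first Slc39a10 window (chr1:46925727-46926026) lies outside the gene, upstream of it. The windows thus need not cover every start of a gene. A match is a run of letters and not a measured site.

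Levels are in CPM: for every library and class, the cells' UMIs were pooled and a gene's part was scaled to a total of 1000000. UMIs are 3′ tags, so levels were compared between classes for 1 gene and not between genes. There were 43 library and class sums with at least 20 cells, of 121311 to 38884585 UMIs. Over them Slc30a8 had 9131 UMIs, Slc39a10 8069, Slc39a5 2103, Slc39a4 1370, Slc39a14 1176, Slc30a1 1017, Slc39a2 703 and Slc30a2 126. The genes differed in where they were high. Among the 6 classes, Slc30a8 was high in alpha-like and beta-like cells, Slc39a2 in Ngn3+-like cells, Slc39a10 in ductal-like cells, Slc39a5 and Slc39a14 in acinar-like cells at E17.5, and Slc39a4 in ductal-like cells at E17.5.

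**Figure D1:**
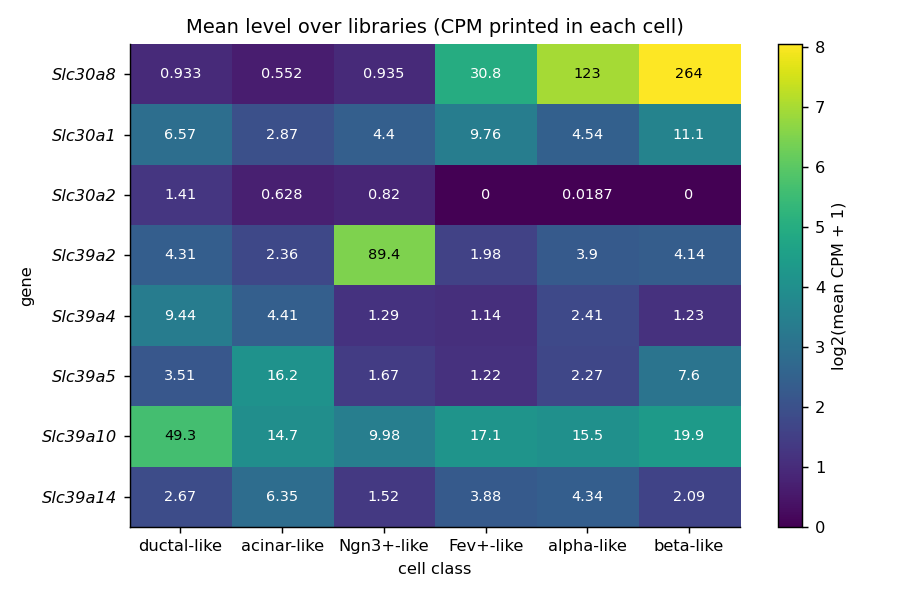
Mean CPM over 6 to 8 libraries of each of the 8 zinc transporter genes (rows) in the 6 cell classes (columns), printed in each cell and coloured as log2(mean CPM + 1). Among the class means of single genes, those that stand out are Slc30a8 in beta-like cells (264 CPM) and alpha-like cells (123 CPM), Slc39a2 in Ngn3+-like cells (89.4 CPM) and Slc39a10 in ductal-like cells (49.3 CPM). The class means cover unlike libraries, and beta-like cells have none of E12.5. Over the 6 libraries with both classes the alpha-like mean of Slc30a8 was 149 CPM.

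Slc30a8 (GRCm38 chr15:52295553-52335798, plus strand) was low in ductal-like, acinar-like and Ngn3+-like cells, higher in Fev+-like cells and highest in the alpha-like and beta-like cells. Ductal-like cells had 0 to 4.32 CPM (median 0.258, n = 8) and acinar-like cells 0 to 1.71 CPM (median 0.159, n = 8). In Ngn3+-like cells the level was 0 to 4.06 CPM (median 0.275, n = 6). In Fev+-like cells it ran from 0 to 120 CPM with a median of 16.6 (n = 7), and in alpha-like cells from 37.3 to 296 CPM with a median of 108 (n = 8). Beta-like cells had 91.3 to 597 CPM with a median of 147 (n = 6). The alpha-like and beta-like sums lay above every ductal-like, acinar-like and Ngn3+-like sum, whereas the Fev+-like range overlapped its neighbours on both sides, and the alpha-like and beta-like ranges overlapped each other. Within libraries, beta-like cells were above alpha-like cells in 6 of 6, alpha-like above Fev+-like in 7 of 7, and Fev+-like above Ngn3+-like in 5 of 6 libraries. The order below that, Ngn3+-like, ductal-like and acinar-like, did not exceed the spread between libraries.

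The level of Slc30a8 in Fev+-like cells differed by stage and by how the class was drawn. At E14.5 it was 0 CPM in v1 batch 1, 8.98 CPM in v1 batch 2, 26.8 CPM in v2 and 16.6 CPM in Fev-Cre. At E12.5 the v2 library had 2.34 CPM, from 1 UMI. At E17.5 the v1 library had 120 CPM (25 UMIs, 95% Poisson interval 77.6 to 177) and the v2 library 40.9 CPM (31 UMIs). Both E17.5 libraries were above every earlier one. The E17.5 v2 value rests on a cluster of 110 cells with more Neurog3 (3423 CPM) than Fev (405 CPM) and with 2632 CPM of Gcg, and at Leiden resolution 2 that library had 0 Fev+-like cells. The same library also held a cluster of 225 cells, left unnamed because none of the Fev+ markers led it, with Slc30a8 at 384 CPM, Fev at 103 CPM and Ins2 at 15315 CPM. The rule that left it unnamed was added after the values of the 8 genes had been seen. With clusters of this kind kept in their class, Slc30a8 was 285 CPM in Fev+-like cells of that library in place of 40.9 CPM, and the mean over 7 libraries was 66.3 CPM in place of 30.8 CPM.

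In beta-like cells Slc30a8 was higher at E17.5 than at E14.5. At E14.5 the level was 152 CPM in v1 batch 1, 140 CPM in v1 batch 2, 141 CPM in v2 and 91.3 CPM in Fev-Cre. At E17.5 it was 597 CPM in v1 and 465 CPM in v2, so the stages did not overlap. The fitted difference, with the kit as a term, was 2.65 ± 0.29 on the log2 scale (SE, 6 libraries). Alpha-like cells showed the same order. Their level was 50.9 and 37.3 CPM at E12.5 (v1 and v2), 125, 128, 91.6 and 80.0 CPM at E14.5 (v1 batches 1 and 2, v2 and Fev-Cre), and 175 and 296 CPM at E17.5 (v1 and v2). No stage overlapped another in alpha-like cells. Within v1 batch 2 alone the order was the same, at 50.9, 128 and 175 CPM in alpha-like cells and at 140 and 597 CPM in beta-like cells. Insulin itself took a growing part of the UMIs of beta-like cells, from 49822 to 138320 CPM at E14.5 to 212452 CPM (v1) and 419616 CPM (v2) at E17.5, which lowers the CPM of every other gene there.

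**Figure D2:**
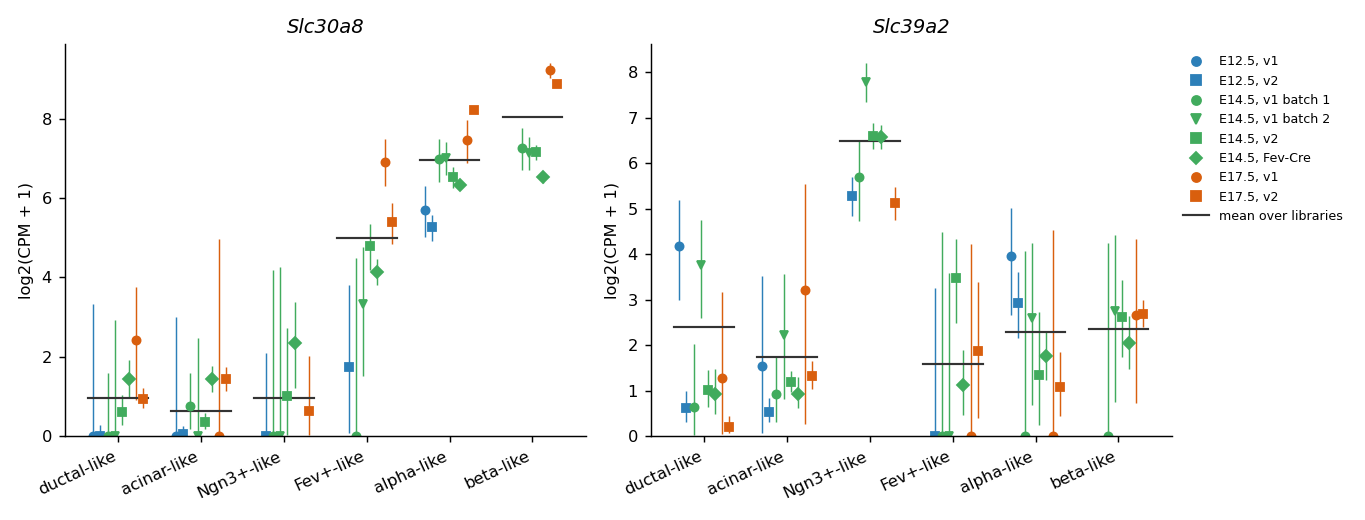
Slc30a8 (left) and Slc39a2 (right) in each library (points, coloured by stage) and class, as log2(CPM + 1), with exact 95% Poisson intervals that cover counting error only and the mean over libraries (bars). Slc30a8 is highest in the E17.5 beta-like cells (597 and 465 CPM), and Slc39a2 lies between 34.1 and 221 CPM in Ngn3+-like cells and at or below 17.3 CPM in the other 5 classes drawn.

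Droplets also hold free RNA, so Slc30a8 was set beside insulin (Ins1 and Ins2), its partner in the granule. In the E17.5 v2 library beta-like cells had 1.11 Slc30a8 UMIs per 1000 insulin UMIs. Ductal-like cells had 1.06 per 1000, acinar-like 0.863, mesenchymal-like 0.994 and immune-like 1.52. Ngn3+-like cells had 0.505 per 1000, from 1 Slc30a8 UMI. In alpha-like cells of that library the ratio was 65.7 per 1000 and in Fev+-like cells 27.5 per 1000. The Fev+-like ratio was 5.69 per 1000 in E14.5 v2 and 12.9 per 1000 in Fev-Cre. In the E14.5 v2 and Fev-Cre libraries the ratios of non-endocrine classes lay above the beta-like one, except for 0 in immune-like cells of Fev-Cre. In E14.5 v2 they were 3.89 in ductal-like, 2.44 in acinar-like, 6.03 in mesenchymal-like and 8.71 in immune-like cells beside 1.02 in beta-like cells, from 6 to 11 Slc30a8 UMIs each, so the Fev+-like ratio of that library lay within their range. In Fev-Cre they were 2.30 in ductal-like, 3.01 in acinar-like and 2.15 in mesenchymal-like cells beside 1.38 in beta-like cells. In v1 they rested on at most 3 Slc30a8 UMIs, as in ductal-like cells of E17.5 (29.7 beside 2.81), acinar-like cells of E14.5 batch 1 (18.8 beside 1.49) and mesenchymal-like cells of E14.5 batch 2 (2.17 beside 2.81). The source of the low Slc30a8 counts in ductal-like and acinar-like cells was not tested. Alpha-like ratios ran from 19.8 per 1000 (E14.5 v2) to 1450 per 1000 (E17.5 v1, 29 Slc30a8 and 20 insulin UMIs). Beta-like ratios ran from 1.02 to 2.81 per 1000 in the 6 libraries.

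**Figure D3:**
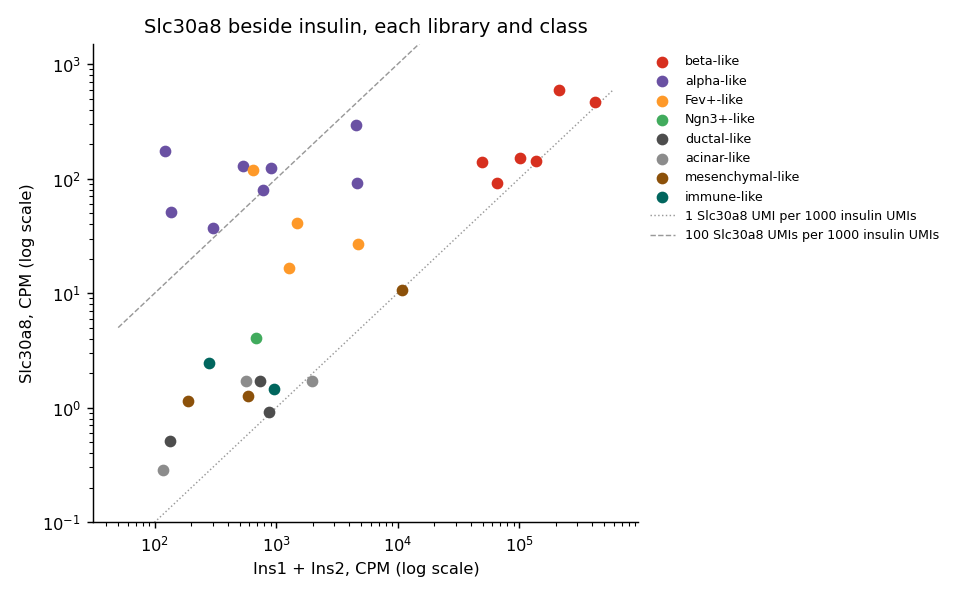
Slc30a8 against Ins1 + Ins2, both in CPM on log axes, for each library and class with 5 or more Slc30a8 UMIs. Beta-like sums lie near 1 Slc30a8 UMI per 1000 insulin UMIs (1.02 to 2.81), non-endocrine sums of the E17.5 v2 library between 0.863 and 1.52 and those of the E14.5 v2 library between 2.44 and 8.71, while alpha-like sums lie between 19.8 and 1450 per 1000.

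Slc39a2 (chr14:51892889-51896745, plus strand), a zinc importer of the plasma membrane, was high in Ngn3+-like cells. At E14.5 its level there was 50.9 CPM in v1 batch 1, 221 CPM in v1 batch 2, 96.8 CPM in v2 and 95 CPM in Fev-Cre. The v2 libraries gave 38.1 CPM at E12.5 and 34.1 CPM at E17.5, below the E14.5 libraries. The highest sums elsewhere were 17.3 CPM (E12.5 v1, 7 UMIs) and 12.6 CPM (E14.5 v1 batch 2, 7 UMIs) in ductal-like cells, 6 UMIs' worth in alpha-like cells (E12.5 v1), below the ductal-like value there, 10.1 CPM in Fev+-like cells (E14.5 v2), 8.24 CPM in acinar-like cells (E17.5 v1, 1 UMI) and 5.71 CPM in beta-like cells. No sum of another of the 6 classes reached the lowest Ngn3+-like sum. Cells of mesenchymal type had 0.128 to 0.810 CPM (n = 8). After each cell was thinned to the same number of UMIs (2000 in v1 and 3000 in v2), 7.04% to 34.1% of Ngn3+-like cells held a Slc39a2 UMI against 0% to 0.280% of mesenchymal-like cells. Before thinning the shares were 12.3% to 44.7% and 0.0561% to 0.373%. Among the other classes drawn, the thinned share reached 5.26% in alpha-like, 4.55% in acinar-like, 2.04% in ductal-like, 1.77% in beta-like and 1.71% in Fev+-like cells. Their highest share before thinning was 10.8%, in beta-like cells. In the E14.5 v2 library the median depth was 4234 UMIs in the Ngn3+-like and 4915 UMIs in the mesenchymal-like cells.

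The fall after the Ngn3+ stage was steep. The fitted log2 difference of Slc39a2 was 6.39 ± 0.31 for Ngn3+-like versus ductal-like and -5.23 ± 0.38 for Fev+-like versus Ngn3+-like (SE, 6 libraries each), with the same direction in 6 of 6 libraries in both. Single clusters showed finer steps. In the E14.5 v2 library a cluster of 203 cells with Neurog3 at 2027 CPM and nearly no Fev (1.02 CPM), unnamed because ductal genes led it, had Slc39a2 at 143 CPM. The Ngn3+-like cluster of 222 cells had 98.2 CPM and the Fev+-like cluster of 174 cells 10.1 CPM. In v1, clusters with both Neurog3 and Fev (4916 and 1528 CPM in batch 1, 2295 and 1579 CPM in batch 2), left unnamed, had 27.2 and 32.6 CPM of Slc39a2, between the Ngn3+-like and Fev+-like values of their libraries. An unnamed Fev-Cre cluster (1619 and 1136 CPM) also lay between, at 6.35 CPM. Other clusters with both genes did not. In E14.5 v2 an unnamed cluster of 27 cells (1643 and 264 CPM) had 107 CPM, above the Ngn3+-like cluster. In E17.5 v2 the Fev+-like cluster itself (3423 and 405 CPM) had 2.64 CPM. Slc39a2 overlaps Mettl17 on the same strand in GENCODE M21, so tags from the shared stretch are uncertain.

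Slc39a10 (chr1:46807544-46892852, minus strand), an importer of the plasma membrane, was highest among the 6 classes in ductal-like cells. Its level there was 17.3 to 84.9 CPM with a median of 43.5 CPM (n = 8). It was 0 to 26.2 CPM in acinar-like cells (median 17.4), 4.92 to 16.8 CPM in Ngn3+-like (median 8.75), 0 to 29.2 CPM in Fev+-like (median 17.9), 0 to 28.7 CPM in alpha-like (median 17.2) and 10.7 to 29.5 CPM in beta-like cells (median 19.8). None of these sums was above 29.5 CPM, which 7 of the 8 ductal-like sums exceeded. Ductal-like cells exceeded acinar-like cells in 7 of 8 libraries and Ngn3+-like cells in 6 of 6. The exception was the E12.5 v1 library, with 17.3 CPM in ductal-like and 20.8 CPM in acinar-like cells. The fitted log2 difference was -2.43 ± 0.31 for Ngn3+-like versus ductal-like (6 libraries) and -1.31 ± 0.27 for acinar-like versus ductal-like (8 libraries). The differences among endocrine classes were smaller, at 0.83 ± 0.32 for Fev+-like versus Ngn3+-like, 0.29 ± 0.25 for beta-like versus Fev+-like and 0.26 ± 0.20 for beta-like versus alpha-like. In GENCODE M21 the gene overlaps Gm28151 and Gm37393 on the same strand.

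Slc39a5 (chr10:128395931-128401229, minus strand), an importer known from pancreas and intestine, was high in acinar-like cells at E17.5. At E12.5 the acinar-like level was 1.89 CPM in v1 (1 UMI) and 4.29 CPM in v2. At E14.5 it was 7.26 CPM in v1 batch 1, 11.1 CPM in v1 batch 2, 2.62 CPM in v2 and 3.10 CPM in Fev-Cre. At E17.5 it was 33.0 CPM in v1 (4 UMIs, 95% Poisson interval 8.98 to 84.4) and 66.5 CPM in v2 (1401 UMIs), above every earlier library. The fitted log2 difference between E17.5 and E14.5 was 4.53 ± 0.49 (6 libraries). The v1 library held 31 acinar-like cells, so this value rested mainly on the v2 library. It was 2.34 without that library. Ductal-like cells at E17.5 had 0 CPM (v1) and 1.97 CPM (v2). The 8 acinar markers summed to 151 CPM and 2149 CPM in the same ductal-like cells, and their part in the Slc39a5 level there was not tested. Beta-like cells had 0.982 to 19.7 CPM (median 7.06, n = 6) and were above alpha-like cells in 6 of 6 libraries and above Fev+-like cells in 6 of 6, at 3 to 29 UMIs per sum. Ankrd52 lies on the opposite strand.

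Slc39a14 (chr14:70303469-70351425, minus strand), which carries zinc and also iron and manganese, was likewise high in acinar-like cells at E17.5. In acinar-like cells it was 0 CPM (v1) and 1.57 CPM (v2) at E12.5. At E14.5 it was 6.81 CPM in v1 batch 1, 0 CPM in v1 batch 2, 2.55 CPM in v2 and 3.42 CPM in Fev-Cre. At E17.5 it was 16.5 CPM in v1 (2 UMIs, 95% Poisson interval 2.00 to 59.6) and 19.9 CPM in v2 (420 UMIs). The fitted log2 difference between E17.5 and E14.5 was 3.23 ± 0.57, and 2.31 without the E17.5 v2 library. Acinar-like cells were above ductal-like cells in 6 of 8 libraries, with 0 UMIs in both classes in the other two, and the fitted log2 difference was 1.36 ± 0.28. The rise at E17.5 was not particular to acinar-like cells. Ductal-like cells had 4.32 CPM (v1, 3 UMIs) and 8.68 CPM (v2, 282 UMIs) at E17.5, against 0 to 3.30 CPM in the earlier libraries. Beta-like cells of E17.5 v2 had 2.05 CPM.

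Slc39a4 (chr15:76612383-76617384, minus strand), the importer that takes up dietary zinc in the intestine, was high in ductal-like cells at E17.5. At E12.5 the ductal-like level was 2.47 CPM in v1 (1 UMI) and 1.74 CPM in v2. At E14.5 it was 2.75 CPM in v1 batch 1, 5.40 CPM in v1 batch 2, 2.21 CPM in v2 and 1.93 CPM in Fev-Cre. At E17.5 it was 31.7 CPM in v1 (22 UMIs) and 27.3 CPM in v2 (887 UMIs). The E17.5 libraries, made with different kits, were close to each other and above every earlier library. Acinar-like cells had 2.24 to 11.1 CPM in the 6 libraries of E12.5 and E14.5, and 0 CPM (v1, 0 UMIs in 31 cells) and 1.66 CPM (v2, 35 UMIs) at E17.5. The fitted log2 difference between E17.5 and E14.5 in acinar-like cells was 0.01 ± 0.70. That fit differs from the CPM levels in its TMM scaling, its kit term and its weight on deep libraries, and without the kit term the difference was -0.39. Which of these accounts for the gap between the fit and the CPM levels was not tested. Acinar-like cells were above ductal-like cells in 6 of 6 earlier libraries and below them in 2 of 2 libraries at E17.5. Endocrine classes had 0 to 7.52 CPM.

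**Figure D4:**
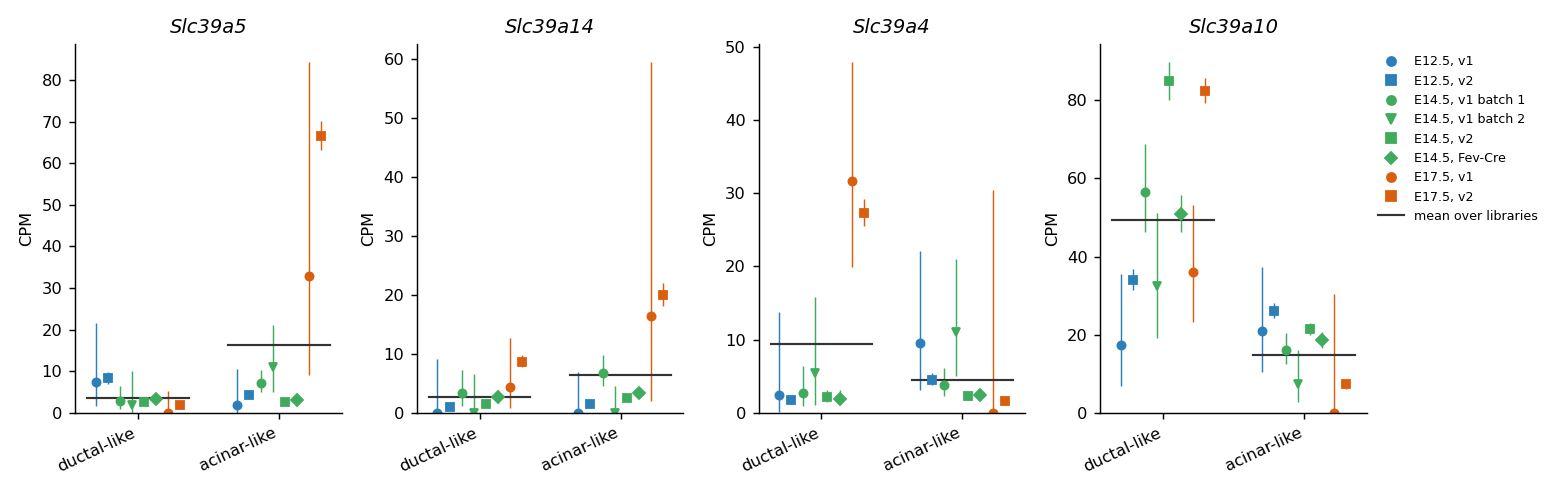
CPM of Slc39a5, Slc39a14, Slc39a4 and Slc39a10 in ductal-like and acinar-like cells of each library (points, coloured by stage), with exact 95% Poisson intervals and the mean over libraries (bars). The E17.5 points stand above all others for Slc39a5 (33.0 and 66.5 CPM) and Slc39a14 (16.5 and 19.9 CPM) in acinar-like cells and for Slc39a4 (31.7 and 27.3 CPM) in ductal-like cells.

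The remaining genes were Slc30a1 and Slc30a2. Slc30a1 (chr1:191906767-191913247, plus strand) had 2.47 to 10.8 CPM in ductal-like cells (median 6.55, n = 8), 0 to 4.99 CPM in acinar-like (median 3.52, n = 8), 0 to 9.25 CPM in Ngn3+-like (median 4.21, n = 6), 2.64 to 24.0 CPM in Fev+-like (median 7.01, n = 7), 0 to 8.39 CPM in alpha-like (median 5.33, n = 8) and 3.44 to 31.4 CPM in beta-like cells (median 7.59, n = 6). These ranges overlapped throughout. Ductal-like cells were above acinar-like cells in 7 of 8 libraries, with a fitted log2 difference of -0.44 ± 0.28 for acinar-like versus ductal-like. In GENCODE M21 1700034H15Rik lies on the opposite strand. Slc30a2 (chr4:134343181-134354484, plus strand), a transporter of vesicles that in mammary gland and adult acinar cells loads zinc for secretion, had 126 UMIs in all, 55 in ductal-like and 69 in acinar-like cells, with 1 in Ngn3+-like, 1 in alpha-like and 0 in Fev+-like and beta-like cells. Its highest ductal-like sum was 4.40 CPM and its highest acinar-like sum 1.59 CPM, and depth limits any order between them.

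The share of all genes that passed the call rule, an adjusted p below 0.05 in edgeR's quasi-likelihood test over all genes with at least a 2-fold change, gives the background of each comparison. For the 8 genes the counts only place their fitted differences beside that background and are no test, since the same levels chose them. In Ngn3+-like versus ductal-like 2 of the 3 that passed the filter on low counts met the rule, where 30.7% of all tested genes did. Slc39a2 was higher (13.2% of all genes) and Slc39a10 lower (1879 of 10741 genes). In Fev+-like versus Ngn3+-like 2 of 3 met it against 18.8%, Slc30a8 higher (9.28%) and Slc39a2 lower (9.55%). In beta-like versus Fev+-like 1 of 3 met it against 10.7%, Slc30a8, which was higher (6.28%), and none was lower (4.42%). In beta-like versus alpha-like 0 of 3 met it against 8.63% (4.18% higher and 4.45% lower), with Slc30a8 at a log2 difference of 0.87 ± 0.19. In acinar-like versus ductal-like 2 of 8 met it against 15.1%, Slc39a14 higher (6.18%) and Slc39a10 lower (8.95%). In acinar-like E17.5 versus E14.5 2 of 8 met it against 10.7%, Slc39a5 and Slc39a14, both higher (5.74%, with 5.00% lower). In beta-like E17.5 versus E14.5 1 of 3 met it against 1.02%, Slc30a8, which was higher (0.706%, with 0.312% lower). The other members fell below the filter on low counts in the comparisons with 3. Without the E17.5 v2 library 21 of all genes met the rule in the acinar-like and 2 in the beta-like stage comparison, and Slc39a5 (2.34), Slc39a14 (2.31) and Slc30a8 (2.43) were not among them. In acinar-like versus ductal-like Slc39a14 did not meet it without that library (1.00) or without the library block (1.63). In Fev+-like versus Ngn3+-like Slc30a8 was below the filter without the E14.5 v2 library, without the block and at Leiden resolution 2.

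The other 22 zinc genes were tested. Their list was drawn up with earlier results of these data known. Their p-values are adjusted over all genes tested, and the counts of calls are no independent test of the list. In the first steps of the endocrine path, from ductal-like to Ngn3+-like and on to Fev+-like cells, the metallothionein genes Mt1 and Mt2 fell and Tmem163 rose. In Ngn3+-like versus ductal-like, 4 of 18 tested were called beside 30.7% of all genes, 1 higher and 3 lower, with a median log2 fold of -0.03 over the 18, beside -0.03 over all genes. Mt1 had a mean of 160 CPM in Ngn3+-like and 1600 CPM in ductal-like cells of the same 6 libraries and fell by 3.30 ± 0.21 on the log2 scale (adjusted p = 6.63e-08, edgeR). Mt2 fell by 2.84 ± 0.32 (adjusted p = 9.27e-06, edgeR) and Mt3, a metallothionein best known from brain, fell by 2.59 ± 0.42 (adjusted p = 0.000199, edgeR). All were lower in 6 of 6 libraries. Tmem163 had a log2 fold of 4.05 ± 0.93 (adjusted p = 0.0025, edgeR) and was higher in 6 of 6. Without the library block Tmem163 and Mt3 were below the filter on low counts.

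In Fev+-like versus Ngn3+-like cells 5 of 15 were called beside 18.8% of all genes, 2 higher and 3 lower, and a median log2 fold of -0.13 beside 0.02 over all genes. Tmem163 was at 0.55 to 32.8 CPM in Ngn3+-like and 42.2 to 374 CPM in Fev+-like cells, with no overlap, at a log2 fold of 3.50 ± 0.27 (adjusted p = 3.2e-08, edgeR). Mt2 fell by 2.46 ± 0.22 (adjusted p = 1.36e-07, edgeR), Mt1 fell by 1.78 ± 0.18 (adjusted p = 7.55e-07, edgeR) and Slc39a11, a zinc importer, fell by 1.13 ± 0.26 (adjusted p = 0.00248, edgeR), each lower in 6 of 6 libraries. At Leiden resolution 2, with 8 sums in place of 12, Mt1 (-0.68) and Mt2 (-0.93) were not called. Without the library block Mt1 was not called (-1.73, adjusted p = 0.0613, edgeR), and with the unnamed clusters kept in their class Slc39a11 was just under a 2-fold change (adjusted p = 0.00423, edgeR). Slc39a3, named here after its value was seen, was higher in 5 of 6 libraries at a log2 fold of 1.14 ± 0.36 (adjusted p = 0.0184, edgeR). It was not called by DESeq2 (adjusted p = 0.0529), nor by edgeR without the E12.5 v2 library (1.02), the E17.5 v2 library (0.85) or the Fev-Cre library (1.12), and was below the filter without the block and at Leiden resolution 2. Mt3 was below the filter on low counts here, at means of 1.16 and 1.04 CPM. This comparison shares its Ngn3+-like sums with the one before.

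In beta-like versus Fev+-like cells 3 of 15 were called beside 10.7% of all genes, all higher, with a median log2 fold of 0.35 beside -0.01 over all genes. Some fitted folds were positive where mean CPM was lower in beta-like cells, as for Slc30a4 (11.2 and 17.6 CPM, fitted 0.49). Slc39a11 rose by 1.46 ± 0.24 (adjusted p = 0.000662, edgeR), in 6 of 6 libraries, and was below the filter without the library block. The other two, named after their values were seen, were higher in 5 of 6 libraries: Slc30a5 at a log2 fold of 1.04 ± 0.23 (adjusted p = 0.00435, edgeR) and Slc30a7 at 1.04 ± 0.24 (adjusted p = 0.00526, edgeR), which both carry zinc into the early secretory pathway. Without the E17.5 v2 library 1 was called, and Slc30a5 had 0.81. Slc30a5 was not called without E14.5 v1 batch 1 either, at 0.96. Slc30a7 was below the filter without the E14.5 v2, the E17.5 v2 or the Fev-Cre library and without the library block. At Leiden resolution 2 neither was called (0.83 and 0.69). Of 14 fits Slc30a5 was called in 10 and Slc30a7 in 9. Tmem163 (0.48 ± 0.14), Mt1 (0.03 ± 0.14) and Mt2 (0.35 ± 0.23) were not called in this step. Mt3 was below the filter on low counts, at means of 8.38 CPM in beta-like and 0.766 CPM in Fev+-like cells, with beta-like cells above in 6 of 6 libraries and no overlap. With no filter its log2 fold was 2.60 (adjusted p = 6.17e-08, edgeR). In beta-like versus alpha-like cells 1 of 17 was called beside 8.63% of all genes, with a median of 0.23 beside -0.01. It was Mt3, named after its value was seen, higher in 5 of 6 libraries at a log2 fold of 1.44 ± 0.40 (adjusted p = 0.0139, edgeR). It was called in 7 of 14 fits. Without the E14.5 v2, the E17.5 v2 or the Fev-Cre library, without the block and at Leiden resolution 2 it was below the filter on low counts. It was not called by DESeq2 (1.27, adjusted p = 0.113) or by edgeR with the unnamed clusters kept (1.24, adjusted p = 0.0605). In beta-like E17.5 versus E14.5 cells 0 of 16 were called by edgeR (1.02% of all genes were) and 0 by DESeq2, with 1 of 16 at an unadjusted p below 0.05 in either. In simulated data of that comparison 96% of 4-fold and 22% of 2-fold changes were recovered.

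Between the exocrine classes, 1 of 18 was called beside 15.1% of all genes. Slc39a11 was higher in acinar-like than in ductal-like cells in 8 of 8 libraries, at means of 37.7 and 17.3 CPM and a log2 fold of 1.55 ± 0.23 (adjusted p = 0.000251, edgeR). The median over the 18 was 0.37, beside -0.02 over all genes. In acinar-like E17.5 versus E14.5 cells 5 of 18 were called beside 10.7% of all genes, all higher, with a median of 0.82 beside -0.12 over all genes. That median is one of fitted folds and not a general rise in CPM. Mean CPM was lower at E17.5 than at E14.5 for Slc30a5 (31.7 and 49.7, fitted 0.61) and Slc30a4 (5.36 and 5.81, fitted 1.76). For Slc39a7 it was 85.4 and 91.7 CPM (fitted 0.78). The source of this gap was not tested. Mt3 was at 1.23 to 4.92 CPM in the 4 E14.5 libraries and at 16.5 (v1) and 43.4 CPM (v2) at E17.5, with a log2 fold of 3.89 ± 0.45 (adjusted p = 3.1e-06, edgeR). Mt1 was at 670 to 1573 CPM at E14.5 and at 2588 and 5163 CPM at E17.5 (2.28 ± 0.37, adjusted p = 0.000263, edgeR), and Slc39a11 at 23.2 to 45.5 CPM and at 65.9 and 48.1 CPM (1.42 ± 0.36, adjusted p = 0.0121, edgeR). Mt2 and Slc39a9, named after their values were seen, were also called, with overlap between the stages, and for Slc39a9 the mean CPM differed little (13.2 at E17.5 and 11.8 at E14.5) beside a fitted log2 fold of 1.59. None of the 5 was called without the E17.5 v2 library, where 21 genes in all were called in place of 1336. Their log2 folds in that fit were 3.17 for Mt3, 1.82 for Mt1, 0.97 for Slc39a11, 0.52 for Mt2 and -0.63 for Slc39a9. Mt2 was not called without the E17.5 v1 library (1.85) or without the kit term (1.53) either, nor Slc39a9 without the E14.5 v2 library (1.44), without the kit term (1.37) or by DESeq2 (1.46). Mt1 and Mt2 are known to respond to stress, and the dissociation lasted 15 min at E14.5 and 30 min at E17.5. Summed erythroid markers in acinar-like cells were 25043 CPM (v1) and 7457 CPM (v2) at E17.5 and 314 and 321 CPM (v1), 1765 CPM (v2) and 0.856 CPM (Fev-Cre) at E14.5. The part of either in the result was not tested.

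**Figure D5:**
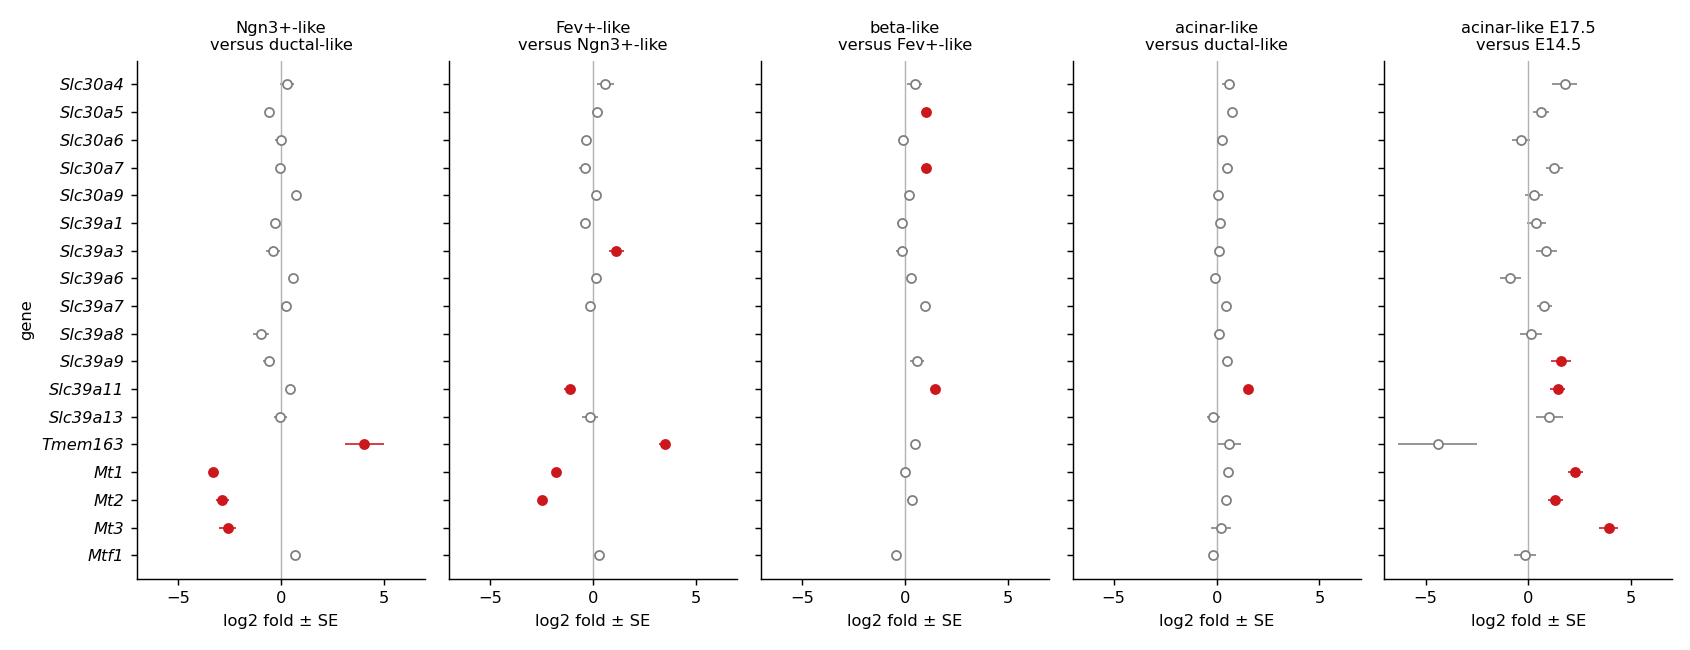
Log2 fold with its standard error of the other zinc genes (rows) in 5 comparisons (panels). Filled red points passed an adjusted p of 0.05 with at least a 2-fold change, and genes below the filter on low counts have no point. Mt1 and Mt2 are lower and Tmem163 higher in Ngn3+-like versus ductal-like and in Fev+-like versus Ngn3+-like cells, and Mt3 has the highest fold of the called genes at E17.5 in acinar-like cells (3.89).

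The metal response element gives a view of Mt1 beside Slc30a1, whose promoters are printed above. Mean Mt1 ran from 29.7 CPM in alpha-like cells of 8 libraries to 1618 CPM in acinar-like cells of 8 libraries, whereas mean Slc30a1 ran from 2.87 CPM in acinar-like to 11.1 CPM in beta-like cells. The class with the highest mean Mt1 was thus the class with the lowest mean Slc30a1. The class ranges of Slc30a1 overlapped, and so did those of Mt1 in acinar-like and ductal-like cells. Ductal-like cells had a mean Mt1 of 1482 CPM, below acinar-like cells in 5 of 8 libraries. Their mean Slc30a1 was 6.57 CPM. In acinar-like cells digestive enzyme genes took many UMIs (mean 30511 CPM for Ctrb1), which lowers the CPM of every other gene there. The fitted log2 difference of Slc30a1 for acinar-like versus ductal-like was -0.44 ± 0.28. Its acinar-like mean includes 0 CPM in E17.5 v1 (31 cells), and its beta-like mean 31.4 CPM in E14.5 v1 batch 2 (11 UMIs). The order is thus one of means and no more.

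Profiles were compared by Pearson's r of log2(CPM + 1) over the 43 sums, which share libraries and differ in depth. The comparison covered 8144 genes with a mean of at least 10 CPM, without the marker genes that named the classes. Within these, the genes most like each member were as follows. For Slc30a8 they were Scg2 (r = 0.95), a granin of secretory granules, Slc7a2 (0.91) and Ripply3 (0.90). For Slc39a2 they were Gm8773 (0.79), Vil1 (0.77) and Plk3 (0.77). For Slc39a5 they were P4hb (0.78), a protein disulfide isomerase of the endoplasmic reticulum, Mlec (0.71) and Arhgdig (0.71). For Slc39a4 they were the glucose transporter Slc2a1 (0.73), Rhbdf1 (0.72) and the glycolytic enzyme Tpi1 (0.71), for Slc39a10 Actn4 (0.74), Cep295 (0.74) and Brca2 (0.70), and for Slc39a14 Klk1 (0.64), Ddt (0.60) and Zg16 (0.55). For Slc30a1 they were Wdr82 (0.72), Unc119b (0.70) and Ehd1 (0.67), and for Slc30a2, of few UMIs, Gpsm2 (0.67), Bcl2l12 (0.67) and Cdc6 (0.66).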

How the data were processed

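The authors deposited UMI counts per gene and cell from 10x Genomics 3′ libraries, aligned with STAR in Cell Ranger 1.1 (v1) or 2.1 (v2) to mm10, with eGFP and tdTomato added to the reference for the Fev-Cre matrix used here. The values are whole-number counts with no normalization by the authors, and each file belongs to 1 sample. The E17.5 v2 library was run in 2 wells of 1 suspension, which were summed. Depth per library was 15671934 to 196793242 UMIs, with medians of 2952 to 11256.5 UMIs in kept cells, and haemoglobin genes took 0.0128% to 60.9% of UMIs (the highest in E17.5 v1). Barcodes shared by wells were at most 1.79% of the smaller well.

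Barcodes with at least 200 genes were kept, as in the paper. Cells with markers of compartments that exclude each other (0.325% to 6.15% per library) were removed as doublets. Cells were clustered with leidenalg 0.10.2 (2000 variable genes, 20 principal components, Leiden resolution 1) without the zinc list, first per library. Endocrine cells were then clustered jointly over the v1 libraries, jointly over the v2 libraries, and alone for Fev-Cre. Names came from a marker score that was chosen, after several forms had been tried, with the clusters in view. Endocrine clusters with none of their name's markers among their 10 leading genes were left unnamed, a rule added after the values of the 8 genes had been seen. The 8 genes and all lists were chosen with earlier results of these data known. Shares of cells with a UMI depend on depth, and intervals (exact Poisson) cover counting error only, as PCR and cell sampling are not in them.

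UMIs were summed per library and class with at least 20 cells and fitted with edgeR 4.0.16 (TMM scaling, filterByExpr, quasi-likelihood test, Benjamini-Hochberg adjustment over all genes tested), with library as a block or, between stages, kit as a term. Deviations from class means were correlated within each library at 0.189 to 0.773, and the pairing comes from the shared suspension of each library's classes. Each library was a separate pool of embryos. The named genes are the 8, up to 3 other zinc genes per direction and comparison that passed and moved alike in every library, and the 3 genes most like each of the 8, and genes outside this rule were named after their values were seen. In simulated counts, 93% of 2-fold changes were recovered in acinar-like versus ductal-like (13339 genes), and in acinar-like E17.5 versus E14.5 (12443 genes) 72% of 4-fold and 3% of 2-fold changes were. A true 2-fold change lies at the fold limit of the call rule. The 2-fold shares are thus not read as the share of such changes that the rule would call. With library as a block, p-values rest on how alike the class difference was over these pools of embryos. Between stages they rest on the spread between pools left after the kit term, in which batch, sort and strain also differ. DESeq2 1.42.0, no filter on low counts, at least 500 genes per cell, Scrublet (scanpy 1.11.5), Leiden resolution 2, no block and leaving out libraries were the alternatives. Gene positions are from GENCODE M21 (GRCm38). Promoters of Slc30a8, Slc39a4 and Slc39a14 are not shown. The Fev-Cre matrix made without the reporter genes was not used, since it holds the same cells.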

Additional observations from a re-analysis of the deposited data

Results flagged for a closer look

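Over the 4 libraries of E14.5, 37 sets of levels were screened for a sample far from the others, and 4 stood out, where chance alone marks about 1 set in 20. In ductal-like cells Slc39a2 was 12.6 CPM (7 UMIs) in v1 batch 2 against 0.55 to 1.03 CPM in the other libraries, and in acinar-like cells it was 3.69 CPM (3 UMIs) there against 0.908 to 1.29 CPM. The same library had the highest Ngn3+-like level of Slc39a2. In Fev+-like cells Slc39a2 was 10.1 CPM in v2 against 0 to 1.17 CPM elsewhere, and the Fev+-like cluster of that library also had 767 CPM of Neurog3. In alpha-like cells Slc39a10 was 0 CPM in v1 batch 2 against 24.0 to 28.7 CPM in the others.

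Acinar-like minus ductal-like differences pointed in opposite directions at different stages for 3 genes, and none of these differences between stages was tested. For Slc39a4 the mean difference was 4.90 CPM at E12.5 (2 libraries), 1.83 CPM at E14.5 (4 libraries) and -28.7 CPM at E17.5 (2 libraries). For Slc39a5 it was -4.77 CPM at E12.5 and 48.8 CPM at E17.5 (2 libraries each). For Slc39a2 it was -7.72 CPM at E12.5 and 4.08 CPM at E17.5, with 1 UMI behind the acinar-like level of E17.5 v1. Its E12.5 value rested mainly on v1, at 17.3 CPM (7 UMIs) in ductal-like and 1.89 CPM (1 UMI) in acinar-like cells. In E12.5 v2 these levels were 0.523 and 0.453 CPM. Beta-like minus alpha-like Slc30a1 was 10.9 CPM over the 4 libraries of E14.5 and -1.44 CPM over the 2 of E17.5, also not tested.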

How the results depend on the processing

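With the fits as reported, 1713 genes were called in Fev+-like versus Ngn3+-like, 850 in beta-like versus Fev+-like, 791 in beta-like versus alpha-like, 2018 in acinar-like versus ductal-like, 1336 in acinar-like E17.5 versus E14.5 and 88 in beta-like E17.5 versus E14.5. With the replicate block dropped (no library or kit term), the counts of all genes called were 921 for Fev+-like versus Ngn3+-like, 511 for beta-like versus Fev+-like, 406 for beta-like versus alpha-like, 1178 for acinar-like versus ductal-like, 769 for acinar-like E17.5 versus E14.5 and 26 for beta-like E17.5 versus E14.5. Of the other zinc genes, 2 were then called in Ngn3+-like versus ductal-like, 3 in Fev+-like versus Ngn3+-like, 0 in beta-like versus alpha-like and 3 in acinar-like E17.5 versus E14.5. Without a filter on low counts, 1347 genes were called in beta-like versus Fev+-like (5 of them other zinc genes), 1288 in beta-like versus alpha-like (2) and 370 in beta-like E17.5 versus E14.5 (1, Mt3). At Leiden resolution 2, Fev+-like versus Ngn3+-like gave 1013 calls (2 other zinc genes), beta-like versus Fev+-like 1 other zinc gene and beta-like versus alpha-like 0. Those fits also lost libraries, with 8, 8 and 10 sums in place of 12 each, since Fev+-like cells numbered 6 in E14.5 v2 and 0 in E17.5 v2 and beta-like cells 3 in E14.5 v2. DESeq2 called 757 genes in beta-like versus alpha-like, 0 of them other zinc genes. With clusters that had no leading marker kept in their class, an alternative chosen after seeing the data, beta-like versus Fev+-like gave 532 calls, beta-like E17.5 versus E14.5 gave 51, beta-like versus alpha-like 0 other zinc genes, and mean Slc30a8 in Ngn3+-like cells was 2.59 CPM in place of 0.935.

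Leaving out 1 library at a time gave 508 (without E17.5 v2) to 971 calls in beta-like versus Fev+-like (other zinc genes 1 to 4), 409 to 941 in beta-like versus alpha-like (0 to 2), where the lowest counts were without E17.5 v2 (409), E14.5 v2 (492) and Fev-Cre (517), 21 to 1867 in acinar-like E17.5 versus E14.5 (0 to 8), lowest without E17.5 v2, and 2 to 91 in beta-like E17.5 versus E14.5, lowest without E17.5 v2. Slc39a9 in acinar-like E17.5 versus E14.5 had a log2 fold of -0.63 without E17.5 v2, the lowest of a range up to 2.01. The cause was not tested. Of 369 alternative fold values of the 8 genes, 12 had another sign, all between acinar-like cells and ductal-like cells or between stages of acinar-like cells. The class means of the 8 genes otherwise moved by less than 1 SD over libraries. That bar is wide: the rise of Slc30a8 in Fev+-like cells with the unnamed clusters kept, given above, stayed within its SD of 41.8 CPM. Leaving out 1 library cannot move a mean by as much as 1 SD, so it was no check of these means. Depth limits Slc30a2 (126 UMIs) and the acinar-like values of E17.5 v1 (31 cells).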

Other observations

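Outside the 6 classes, the genes had further sites of high level. Slc39a2 was 81.2 CPM (28 UMIs) in epsilon-like cells, the ghrelin cells, at E14.5 in v2 and 36.6 CPM (15 UMIs) at E17.5 in v2, where Ngn3+-like cells had 34.1 CPM. It was 3.62 CPM in the epsilon-like cells of the Fev-Cre library, a cluster with more Gcg (10264 CPM) than Ghrl (9403 CPM), whereas the v2 clusters had Ghrl at 40251 and 72319 CPM and Gcg at 26.1 and 48.8 CPM. Neurog3 was 873 (E14.5 v2), 1449 (E17.5 v2) and 123 CPM (Fev-Cre) in these cells. Slc30a8 was 5.92 to 34.2 CPM in delta-like cells (somatostatin, n = 4), below the alpha-like cells of the same library in 4 of 4, and 0 to 6.52 CPM in epsilon-like cells (n = 3). In the Fev-Cre library the alpha-like clusters differed, with 108 CPM of Slc30a8 beside 62371 CPM of Gcg in one and 24.0 CPM beside 9143 CPM in the other. Its beta-like clusters had the opposite order, with 68.7 CPM of Slc30a8 beside 104587 CPM of Ins2 in one and 103 CPM beside 19247 CPM in the other. Slc39a14 was 22.0 CPM (9 UMIs, 95% Poisson interval 10.0 to 41.7) in epsilon-like cells at E17.5 in v2, beside 19.9 CPM in acinar-like cells of that library, and 0 and 4.35 CPM in the epsilon-like cells of E14.5 v2 and Fev-Cre.

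Slc39a4 was 6.22 to 15.3 CPM in mesothelial-like cells, the lining of the organ (mean 10.0 ± 3.26 SD, n = 7), in every library with that class. Slc30a2 was 3.72 ± 3.13 CPM (SD, n = 8) in immune-like cells, with 59 UMIs there. Slc39a10 was also high outside the epithelium, at 50.3 ± 8.93 CPM in endothelial-like (n = 8), 45.9 ± 13.1 CPM in neural crest and glia-like (n = 8) and 43.6 ± 13.7 CPM in mesothelial-like cells (n = 7), and 1.80 ± 1.48 CPM in erythroid-like cells (n = 7).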
